A study of Rattus norvegicus with 3 samples.

Results

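Type I interferon response genes were followed across 3 soft tissues of the rat upper jaw. The list held 48 genes known to be induced by interferon or to carry its signal. Members were found by gene symbol in the probe set annotation of the array, each gene was read from its brightest probe set with exactly 1 symbol, and 44 of the 48 were measured among 14217 genes in all. Oas2, Oasl2, Gbp5 and Xaf1 had no probe set of this kind and were not analysed here.

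All animals were wild-type male Sprague Dawley rats, 9 weeks old at harvest. Peri-implant connective tissue (PICT) lay around a titanium alloy implant that had been set into a fresh upper first molar socket at 5 weeks of age, 4 weeks before harvest. Periodontal connective tissue (PCT) lay around the natural upper first molar of rats for which the labels name no surgery. The series text once writes mice for PCT, while the sample labels give rat throughout. Oral mucosa connective tissue (OMCT) was taken where that molar had been extracted 4 weeks earlier and no implant was set. The pieces were cut from sections by laser microdissection and each tissue was read on 1 array, so no difference below has a replicate check or a test. How many animals each array drew on is not stated in the labels.

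Type I interferons are secreted when cells sense foreign or misplaced nucleic acid. They bind a receptor made of Ifnar1 and Ifnar2, whose kinases activate a complex that holds STAT2 and IRF9 and binds the interferon-stimulated response element in promoters. The induced genes include antiviral enzymes, nucleic acid sensors and the factors that feed the response (IRF7) or damp it (USP18). Interferon gamma acts through its own receptor and a different promoter site, the gamma-activated site, and the sets of genes that the interferons induce overlap.

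Promoter sequence was available in the RefSeq table of assembly GRCr8 for 35 of the 44 members, from 250 bases before to 50 bases after the transcript start used in that table. The core letters of the response element, TTTCNNTTTC, were searched on both strands (the reverse reads GAAANNGAAA). They occurred in 21 of the 35 windows, or 60%, against 3.92% of all 33469 promoters in the table. The letters of the gamma-activated site, TTCNNNGAA, which read the same way on both strands, occurred in 13 members, or 37.1%, against 8.87% of all promoters. The genes were listed as interferon-induced, so this share describes the list, and a match is not a shown binding site.

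Stretches around these letters are shown for 8 members. For Ifit3, Bst2 and Ifitm3 they are the 160 bases that end just before the table's start. For the other 5 those bases lay partly or wholly inside the gene's span in the RefSeq gene table, which can begin farther upstream, so 30 bases around the match are shown. The first 4 belong to genes that passed 2-fold in PICT against both other tissues, the Oas1 pair to paralogs, and Bst2 and Ifitm3 to genes lower in PICT than in PCT. Bst2 was added after its values were seen. Capitals mark each match to the response element letters.
Rsad2 (chr6:48788248-48788277, minus strand): ctggttcaacTTTCATTTTCagaaaacaga
Ifit3 (chr1:241527166-241527325, plus strand): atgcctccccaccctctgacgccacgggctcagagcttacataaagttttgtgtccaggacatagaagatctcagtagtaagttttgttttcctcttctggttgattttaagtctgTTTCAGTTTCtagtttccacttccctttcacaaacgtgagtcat
Irf7 (chr1:205800073-205800102, minus strand): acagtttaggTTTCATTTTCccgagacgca
Gbp4 (chr2:233978466-233978495, plus strand): agaagcagggTTTCGATTTCggttcccttt
Oas1a (chr12:41330418-41330447, plus strand): ctctcggGAAATGGAAACTGAAAatcttgt
Oas1b (chr12:41395889-41395918, minus strand): ttcccggGAAATGGAAACTGAAAaccctat
Bst2 (chr16:18254968-18255127, minus strand): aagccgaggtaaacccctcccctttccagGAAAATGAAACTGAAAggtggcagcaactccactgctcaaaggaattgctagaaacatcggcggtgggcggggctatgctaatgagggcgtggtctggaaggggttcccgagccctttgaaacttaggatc
Ifitm3 (chr1:205541759-205541918, minus strand): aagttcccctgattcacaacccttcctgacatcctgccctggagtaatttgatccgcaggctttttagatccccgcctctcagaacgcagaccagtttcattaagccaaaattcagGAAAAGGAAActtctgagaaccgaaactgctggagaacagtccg

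The letters were found in members of each kind. Of the 7 members that were higher in PICT against both other tissues and had a window, 4 held them, and Mx1, Cmpk2 and Samhd1 did not within these 300 bases. They also stood in both members lower in PICT than in PCT and in 12 of the 22 that were neither. Oas1a and Oas1b shared an overlapping pair of matches, which began 41 and 35 bases before the table's start of Oas1a and 59 and 53 bases before that of Oas1b.

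Levels are deposited intensities. For differences, 8.56 (the 20th percentile of the table) was added to each, log2 was taken and the array median subtracted. Differences between arrays on this scale are called relative log2 differences, and a value of 1 is 2-fold. Higher and lower below mean a relative difference of at least 1 in size, with the brighter array at or above its own median probe set. The PCT array was dimmer as a whole, by 0.60 below PICT and 0.62 below OMCT in median log2 value, and its 3' to 5' control ratio for Hk1, which grows as RNA shortens, was 2.80 against 1.58 in PICT and 1.97 in OMCT. Whether this bears on the differences from PCT was not tested. Fibroblast markers were bright on every array, and so were the epithelial keratins Krt5 and Krt14, so RNA of epithelium was present too. In mixed tissue, more cells of a type and more RNA per cell cannot be told apart.

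Many interferon response genes stood higher in PICT than in either other tissue. Against PCT, 16 of the 44 passed 2-fold upward in PICT (36.4%), 2 passed it downward and 26 did neither. Over all genes 3.98% were higher and 3.37% lower. As deposited, with no scaling, the counts were 27 higher and 0 lower, against 14.1% and 0.9% of all genes. Against OMCT, 12 were higher (27.3%), 0 lower and 32 neither, where 4.15% of all genes were higher and 4.46% lower. The median relative difference of the 44 was 0.75 against PCT and 0.68 against OMCT, and that of all genes was -0.13 and -0.04. Both comparisons use the PICT array, so they are not independent.

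Between OMCT and PCT few members passed 2-fold. Ifitm1 was higher in OMCT, Rsad2 was lower, and 42 were neither. Over all genes 5.66% were higher and 4.81% lower. The members' median was 0.09, against -0.08 for all genes. As deposited, 12 members were higher in OMCT, against 17.6% of all genes, and 0 were lower, against 2.1%. The median was then 0.71, against 0.54 for all genes, so this comparison depends on the scaling.

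PICT had the highest relative level of the 3 arrays for 32 of the 44 members (72.7%), against 25.8% of all genes. The full order of PICT above OMCT above PCT held for 17 members, against 12% of all genes, and as deposited for 30, against 30.6%. A set of 11 members passed 2-fold in PICT against both other tissues, as did 0.957% of all genes. It held Mx1, Mx2, Isg15, Rsad2, Ifit3, Usp18, Irf7, Gbp4, Cmpk2, Samhd1 and Ifitm1. As deposited, 33 members were highest in PICT, against 40.5% of all genes.

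**Figure D1:**
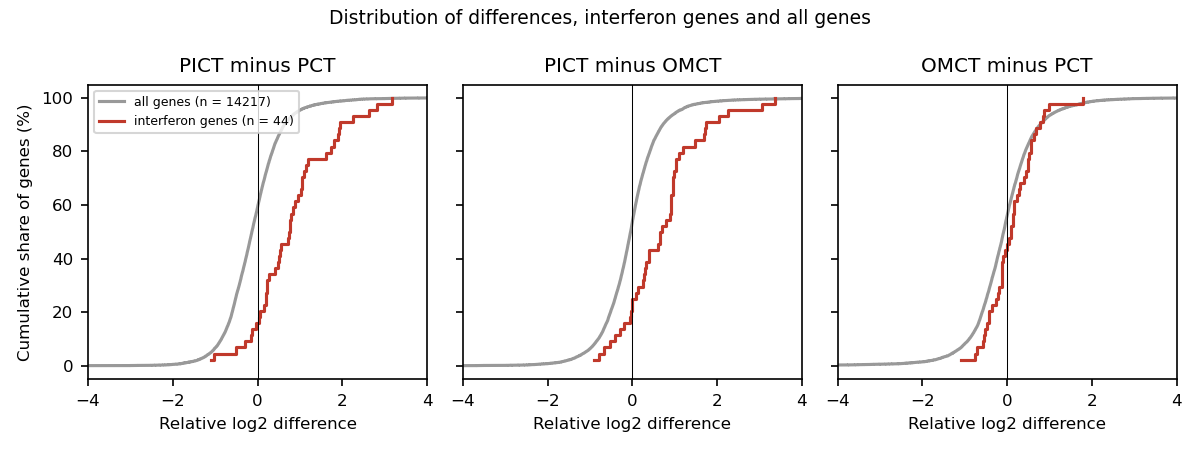
Cumulative share of genes (y axis, %) at or below each relative log2 difference (x axis), for all 14217 genes (grey) and the 44 interferon genes (red). The red curve lies to the right of the grey one in PICT minus PCT and PICT minus OMCT, with medians of 0.75 and 0.68, and close to it in OMCT minus PCT, with a median of 0.09.

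Low signal touched few members. Of the 44, 39 reached the array median on at least 1 array, and Ifit1, Ifih1, Oas1b, Herc6 and Zbp1 reached it on none, so these 5 could not be counted. With no such filter the counts were the same. Oas1b in PCT, at an intensity of 3.25, was the 1 member value at or below the brightest negative control on its array (5.71). Of the 26 members brighter on average than the median gene, 9 were higher in PICT than in PCT, against 4.9% of all genes so placed, and 5 were higher than in OMCT, against 5.11%.

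Neither receptor chain passed 2-fold in any comparison on the relative scale. Ifnar1 read 597 on the PICT array, 336 for PCT and 966 for OMCT, and Ifnar2 read 439.7, 196 and 461. On these brightest probe sets OMCT was the highest array for both, and PCT the lowest. The relative difference of PICT from PCT was 0.21 for Ifnar1 and 0.53 for Ifnar2, and from OMCT -0.67 and -0.05. Ifnar1 has 6 probe sets. Against PCT they ran from 0.21 to 1.88, all above 0, and against OMCT from -0.67 to 0.76. The other Ifnar2 probe set gave 0.52 against PCT and 0.40 against OMCT. With the mean over probe sets, PICT minus OMCT was 0.12 for Ifnar1 and 0.18 for Ifnar2, so its sign depends on the probe set. As deposited, Ifnar2 passed 2-fold in PICT minus PCT at 1.13, and both chains did so in OMCT minus PCT, Ifnar2 at 1.19.

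Among the transcription factors, Irf7 differed most. Irf7, which drives the transcription of interferon genes once activated, read 654 on the PICT array, 105 for PCT and 307 for OMCT. Its relative difference was 1.94 against PCT and 1.09 against OMCT. Stat2, a signal transducer downstream of the type I receptor, stood at 401, 122 and 255, a difference of 1.04 against PCT and 0.66 against OMCT. Its other probe set gave 0.54 and 0.74 and the mean over both 0.79 against PCT, so its 2-fold call rests on the brighter one. Irf9, the DNA-binding partner of STAT2, stood at 212, 76.6 and 175. Its differences were 0.77 and 0.29, under 2-fold. Irf1 and Irf8, factors shared with the interferon gamma response, differed from PCT by 0.78 and 0.84 and from OMCT by 0.69 and 0.97. All 5 factors were thus brightest in PICT, and Irf1, Irf8 and Irf9 did not reach 2-fold in any comparison on the relative scale. As deposited these 3 passed it against PCT, at 1.38, 1.44 and 1.37, and Irf9 also in OMCT minus PCT, at 1.11.

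Genes of the Isg15 pathway gave some of the widest differences. Isg15, a ubiquitin-like protein that is joined to other proteins, read 763 on the PICT array, 73.2 for PCT and 85.5 for OMCT. PICT stood far apart and the other arrays lay close together, with relative differences of 2.63 and 3.06. Usp18, the protease that removes Isg15 and also restrains the receptor, stood at 575, 107 and 169, with differences of 1.74 and 1.73. Herc6, the ligase that attaches Isg15 in rodents, was dim, at 42.6, 11.0 and 19.0, and differed by 0.78 and 0.91. Parp9 and Dtx3l, which work as a pair and are transcribed from neighbouring genes, differed from PCT by 0.94 and 0.22 and from OMCT by 0.26 and 0.14. Parp14, another ADP-ribosyltransferase, differed by 0.51 and 0.27. Its other probe set, brighter in PICT and OMCT but dimmer in PCT, differed by 1.21 and 0.50.

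Antiviral effectors held the largest single difference. Mx1, a dynamin-like GTPase that acts against influenza-like viruses in the nucleus of rodent cells, read 489 on the PICT array, 27.8 for PCT and 40.0 for OMCT. Its relative difference was 3.17 against PCT and 3.38 against OMCT. Mx2, the cytoplasmic rodent paralog, stood at 99.1, 6.38 and 25.3, with differences of 2.25 and 1.69. A second, dimmer Mx2 probe set read 0.94 in PICT, 5.72 in PCT and 4.39 in OMCT and went the other way, its PICT value lying under the highest negative control. The mean over both Mx2 probe sets differed by 0.53 and 0.63, so its 2-fold call rests on the brighter one.

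Several enzymes that act on nucleotides or RNA followed. Rsad2 (viperin), which makes a chain-terminating nucleotide, read 147 on the PICT array, 37.7 for PCT and 24.7 for OMCT, and was the 1 member lower in OMCT than in PCT by 2-fold, at -1.10. Against PICT it differed by 1.15 from PCT and by 2.25 from OMCT. Cmpk2, a mitochondrial nucleotide kinase encoded next to Rsad2, stood at 109, 25.4 and 27.9, with differences of 1.19 and 1.71. Its second probe set also passed 2-fold against both, with 2.54 against OMCT. Samhd1, which breaks down deoxynucleotides, stood at 132, 21.4 and 42.2, with differences of 1.62 and 1.48. PICT was the highest array for all 3 genes.

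Genes of the oligoadenylate synthetase family, of which only some members activate RNase L, differed among themselves. Oas1a read 178 on the PICT array, 24.3 for PCT and 91.4 for OMCT, a relative difference of 1.90 against PCT and 0.92 against OMCT. Oas1b, which carries the shared promoter letters shown above, was dim at 11.5, 3.25 and 11.9, so its differences of 0.16 and -0.01 rest on low signal. Oasl differed by 0.20 and 0.39. These paralogs are similar in sequence, and how far their probes read each other was not tested.

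Other effectors were mixed. Sp110, a nuclear body protein, stood at 463, 144 and 248 and passed 2-fold against PCT at 1.03, with 0.90 against OMCT, but its other 2 probe sets gave -0.04 and 0.04 against PCT. Isg20, an exonuclease, differed by 0.54 and 0.98, and Eif2ak2, the RNA-dependent kinase PKR, by 0.49 and -0.02. Adar, the RNA-editing deaminase, differed by -0.04 and 0.66. Bst2 (tetherin), which holds budding virus at the membrane, ran against the list, reading 72.7 on the PICT array, 105 for PCT and 110.1 for OMCT. Its relative difference was -1.09 against PCT and -0.53 against OMCT, and -0.49 and -0.55 as deposited.

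**Figure D2:**
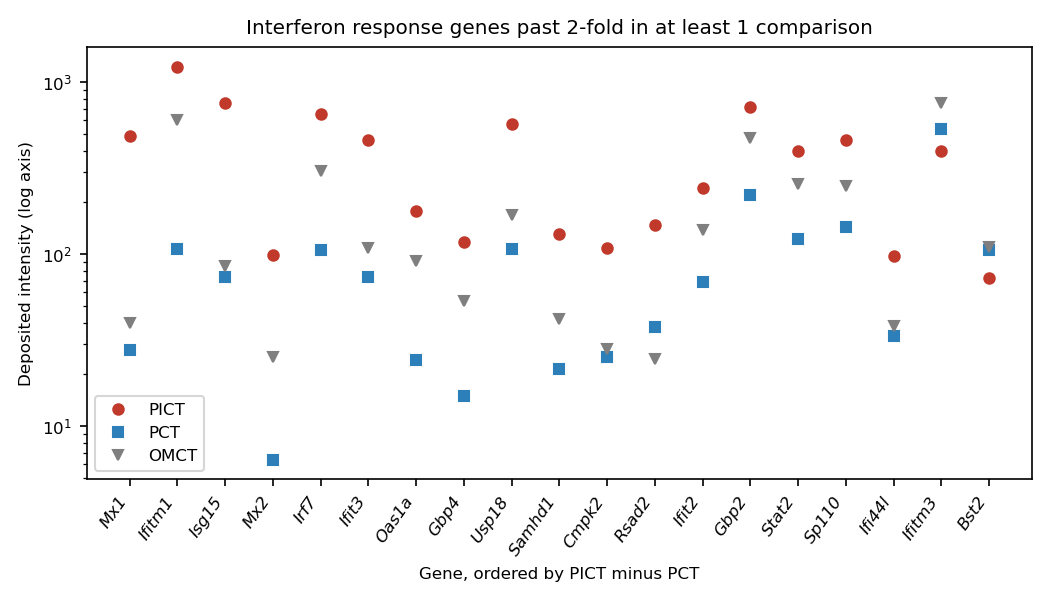
Deposited intensity (log axis) of the 19 members past the 2-fold rule in at least 1 comparison, on the PICT (red circles), PCT (blue squares) and OMCT (grey triangles) arrays, with 1 array per tissue. PICT is the highest point for 17 genes and the lowest for Ifitm3 and Bst2, and levels are not comparable between genes.

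Within the IFIT and IFITM families the members split. Ifit3, a scaffold for the RNA-binding IFIT proteins, read 463 on the PICT array, 73.3 for PCT and 108 for OMCT, with relative differences of 1.92 and 2.03. Ifit2 stood at 243, 69.3 and 139, with differences of 1.09 and 0.79. Ifit1 was dim at 18.8, 8.98 and 12.6 and differed by 0.04 and 0.39. The IFITM proteins block entry of viruses at membranes, and Ifitm1 is found mainly at the cell surface. Ifitm1 read 1233 on the PICT array, 107 for PCT and 607 for OMCT, with relative differences of 2.82 and 1.03. It was the 1 member more than 2-fold higher in OMCT than in PCT, at 1.79.

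Ifitm3, the endosomal member of that family, went the other way, with 397 for PICT against 534 for PCT and 763 for OMCT. Its relative difference was -1.02 against PCT and -0.91 against OMCT. Ifitm2 stood at 310, 290.1 and 418 and differed by -0.51 and -0.40. As deposited, Ifitm2 was 0.09 higher in PICT than in PCT and Ifitm3 was 0.42 lower, written as a difference of -0.42. Each IFITM gene has 1 probe set, and these paralogs are similar enough that cross-reading between probes cannot be judged here.

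None of the 4 genes grouped here with the RNA and DNA sensors passed 2-fold in any comparison on its chosen probe set. The group is a choice made here and includes Trim25, which acts on a sensor. Ifih1 (MDA5), a sensor of long double-stranded RNA, was dim at 31.5, 11.4 and 12.4, with relative differences of 0.40 and 0.95. Zbp1, a sensor of left-handed nucleic acid, stood at 36.4, 17.1 and 14.7, with 0.21 and 0.97. Trim25, the ubiquitin ligase that acts on RIG-I, differed by -0.15 and -0.19. Dhx58 (LGP2) depended on the probe set. The brightest by mean over the arrays gave 0.07 against PCT and 0.33 against OMCT. The others, brighter than it in PICT but dimmer in PCT and OMCT, gave 1.38 and 1.02 against PCT and 1.63 and 1.65 against OMCT.

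GTPases that act on vacuoles around microbes are induced by interferon gamma as well as by type I interferons. Gbp4 read 117 on the PICT array, 15.0 for PCT and 53.7 for OMCT, with relative differences of 1.81 and 1.03. Gbp2 stood at 718, 222 and 474, with 1.06 and 0.61. Igtp (Irgm3 in mice) differed by 0.87 and 0.91 and Irgm by 0.27 and -0.01. Of the remaining induced genes, Ifi44l stood at 97.3, 33.5 and 38.0 and passed 2-fold against OMCT at 1.20, with 0.73 against PCT. Its neighbour Ifi44 stood at 79.3, 26.3 and 74.7, close in PICT and OMCT, with 0.73 and 0.10. Ifi27, a mitochondrial protein, was brightest in OMCT, at 856, 686 and 1492, and differed by -0.29 and -0.77. Ifi35 differed by -0.13 and -0.29.

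**Figure D3:**
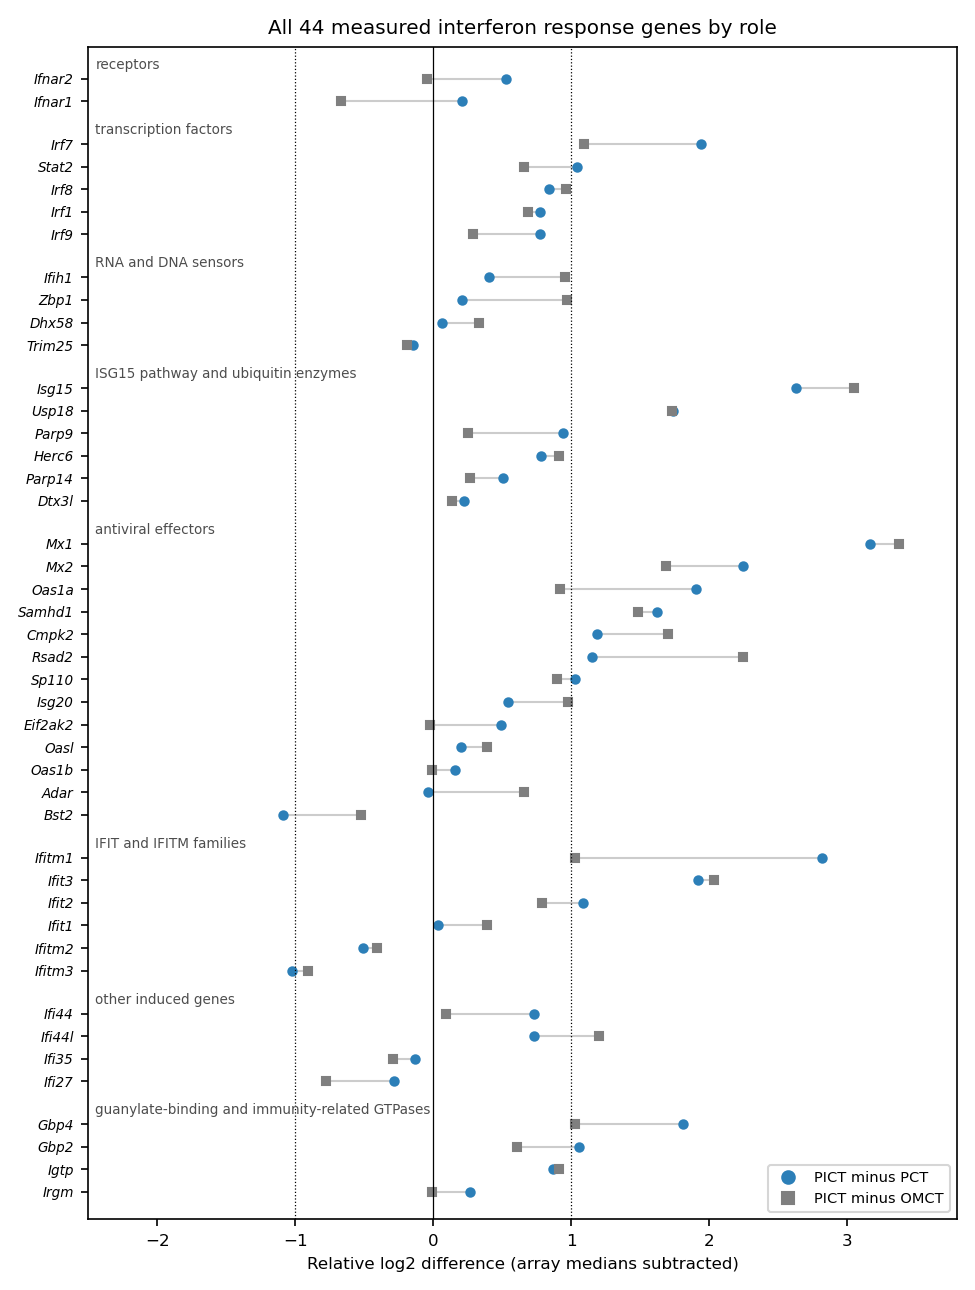
Relative log2 difference (x axis, array medians subtracted) of each of the 44 members, grouped by role, for PICT minus PCT (blue circles) and PICT minus OMCT (grey squares), with dotted lines at 2-fold. Mx1 lies farthest right in both comparisons, and Ifi27, Ifi35, Trim25, Bst2, Ifitm2 and Ifitm3 lie left of 0 in both.

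Genes with several probe sets gave a measure of the spread between probe sets. It holds no variation between dissections or animals, so it is no measure of error for the tissue differences. Among probe sets of the same gene, taken over all genes, relative differences had an SD of 0.49 in each comparison. Of the 44 members, 14 differed between PICT and PCT by less than that SD, 15 did so in PICT minus OMCT, and 28 in OMCT minus PCT. In 8 of the 12 members with several probe sets, all of them had the same sign between PICT and PCT; the exceptions were Adar, Igtp, Mx2 and Sp110.

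The 3 interferon genes measured read below the array median on every array. Of the interferon genes listed, only Ifnb1, Ifnk and Ifng were measured. The listed interferon alpha, epsilon and lambda genes were not, so nothing can be said of their levels. Ifnb1 (interferon beta) read 10.6 on the PICT array, 1.11 for PCT and 17.7 for OMCT. Ifng stood at 2.57, 3.54 and 7.69, and Ifnk, an interferon of keratinocytes, at 21.0, 21.7 and 22.4. The highest negative controls read 8.36, 5.71 and 3.60, so Ifng did not exceed them in PICT or PCT, nor Ifnb1 in PCT. None of these genes was higher in PICT than in OMCT.

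Further lists of genes around the pathway are read against the same shares of all genes, 3.98% higher and 3.37% lower against PCT and 4.15% and 4.46% against OMCT. Of 17 receptor and JAK-STAT genes, 5 of them also in the list, 3 were higher in PICT than in PCT and 1 lower, and 2 were higher and 0 lower than in OMCT, with medians of 0.56 and 0.26. Members made up Stat2 and Usp18 of those higher than in PCT and Usp18 of those higher than in OMCT. As deposited, 10 of the 17 were higher than in PCT, against 14.1% of all genes. Ifngr2, a chain of the interferon gamma receptor, differed from PCT by 2.11 and from OMCT by 0.75, and Ifnlr1, a chain of the interferon lambda receptor, by -1.15 and -0.20. Jak2, a kinase of the interferon gamma receptor, was higher than in OMCT at 1.19. Of 17 sensor and induction genes, 5 of them also in the list, 5 were higher than in PCT and 0 lower, and against OMCT Irf7 was higher and 0 were lower, with medians of 0.47 and 0.28. Besides the member Irf7, those higher than in PCT were Tlr7, Tlr8, Sting1 and Mnda, and as deposited 9 of the 17 were. Tlr7, an endosomal sensor of single-stranded RNA, read 83.2 on the PICT array, 4.26 for PCT and 115 for OMCT, and Tlr8 read 125, 10.2 and 204. Both were thus highest in OMCT.

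Chemokines induced by interferons were brightest in PICT. Cxcl10 read 264 on the PICT array, 21.7 for PCT and 13.7 for OMCT, relative differences of 2.57 and 3.63. Cxcl11 stood at 55.6, 4.11 and 2.22, with the last 2 not above the negative controls, and Cxcl9 at 32.1, 8.95 and 10.2. All 3 bind Cxcr3, a chemokine receptor that T cells carry. Over 16 interferon gamma targets, 2 of them also in the list, 4 were higher than in PCT and 0 lower, while 2 were higher and 1 lower than in OMCT, with medians of 0.71 and 0.28. As deposited 10 of the 16 were higher than in PCT. Fcgr1a, an antibody receptor of macrophages, differed from PCT by 2.99 but from OMCT by 0.28. RT1-Bb and RT1-Ba, partner chains of an MHC class II molecule, differed from OMCT by 1.45 and -1.11.

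The MHC class I list of 13 genes had 3 higher and 1 lower than in PCT and 2 higher and 0 lower than in OMCT. Its medians were close to 0, at 0.17 and 0.05, and as deposited 6 were higher than in PCT. The genes with the largest differences are named. Nlrc5, which switches on MHC class I genes, read 151 on the PICT array, 13.5 for PCT and 42.6 for OMCT, with differences of 2.25 and 1.66. Psmb9, an immunoproteasome subunit, differed by 1.03 and 1.22, and Tapbp, which loads peptides, by -1.35 and -0.51. B2m, the light chain, differed by -0.02 and 0.05.

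A list of 28 further interferon-stimulated genes, none of them a member, had 8 higher and 0 lower against PCT (median 0.45) and 4 higher and 0 lower against OMCT (median 0.30). As deposited 12 were higher than in PCT. Ddx60, an RNA helicase, read 99.4 on the PICT array, 6.18 for PCT and 10.2 for OMCT, with relative differences of 2.27 and 2.54. Slfn4, a schlafen gene of myeloid cells, stood at 2631, 249 and 862, with 2.76 and 1.62. Rnf213, a large ubiquitin ligase, differed by 1.31 and 1.30 and Casp12, an inflammatory caspase, by 1.55 and 1.29. In these 4 genes PICT was the highest array and passed 2-fold against both others.

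Cell type markers differed between the arrays as well. Their calls stand beside 3.98% of all genes higher and 3.37% lower against PCT, and 4.15% and 4.46% against OMCT. The 8 neutrophil markers were higher for 4 and lower for 0 against PCT and higher for 5 and lower for 0 against OMCT, and their intensities summed to 6588 for PICT, 854 for PCT and 1690.2 for OMCT. Most of the PICT sum came from S100a9 at 2794, 157 and 720.1, Mmp9 at 1836, 166 and 614, and S100a8 at 1376, 321 and 136. Which cells gave this signal was not tested. Lcn2 stood at 21.4, 8.72 and 46.5, brightest in OMCT. Np4, a neutrophil defensin, stood at 1.06, 2.93 and 1.83, not above the negative control in any array. The 15 macrophage markers summed to 4460 in PICT, 576 in PCT and 6716 in OMCT. Against PCT 9 were higher in PICT and 0 lower, and against OMCT 1 was higher and 4 lower. The macrophage sum was thus highest in OMCT and lowest in PCT.

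T and NK cell markers summed to 718 in PICT, 154 in PCT and 911 in OMCT over 15 genes. Of these, 3 were higher in PICT and 0 lower against PCT, and 1 was higher and 1 lower against OMCT. Not above the negative control were 1 in PICT, 6 in PCT and 3 in OMCT. Cd8a, a chain of the CD8 coreceptor, stood at 103, 0.41 and 31.4, its PCT value being under that control. The largest part of the OMCT sum was Cd4, which macrophages also carry in rats, at 157, 29.2 and 498, and the median over the list was 0.58 in PICT minus OMCT. Dendritic cell markers summed to 708, 151 and 629 over 6 genes. Of 10 plasmacytoid dendritic cell markers listed, the 5 measured summed to 1415, 796 and 2928, most of it from Tcf4, which other cells also express. The 14 markers of differentiated epithelium summed to 29945, 24661 and 4822, with 13 higher in PICT than in OMCT and 0 of 14 past 2-fold against PCT. B and plasma cell markers summed to 266, 193 and 489 over 7 genes, with 4 of 7 not above the negative control in PICT. Fibroblast markers summed to 34786, 23408 and 52935 over 11 genes, endothelial markers to 2433, 2849 and 4746 over 9, and basal keratinocyte markers to 24798, 28307 and 24405 over 9. The part of any of these cell types in the interferon differences was not tested.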

How the data were processed

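RNA was labelled with a 3' IVT kit and read on a rat GeneChip, per the labels. The deposited intensity values are on a linear scale, 1 per probe set, and how the authors summarised probes or scaled arrays is not stated in the labels. Of 31099 probe sets, 20826 non-control ones had 1 gene symbol in the 2016 platform annotation, 436 had several and 9831 had none; 20758 matched RefSeq by gene ID. The brightest probe set by mean log2 value stood for a gene. Values were log2(intensity + 8.56) with array medians subtracted. Calls needed a 2-fold difference with the brighter array at or above its median. Genes named were the members past this rule, the receptors, Stat2 and Irf9, and of each other list mainly those with the largest differences; others were chosen after their values were seen. With 1 array per tissue no test, SD between animals or p-value exists, and the number of arrays limits the precision. The members and lists were chosen with earlier results of these data known. The call rule was run on simulated data with large changes in bright genes and little noise, which does not test calls near 2-fold or in dim genes. Python 3.11.15, numpy 2.4.6 and pandas 2.3.3 were used. Scaling, pseudocount, probe set choice and the filter were varied.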

Additional observations from a re-analysis of the deposited data

How the results depend on the processing

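No paired analysis was possible because each tissue has 1 array. As deposited, PICT minus PCT gave 27 members higher and 0 lower (median 1.35), and OMCT minus PCT gave 12 and 0 (median 0.71), since the dimmer PCT array is then not rescaled. Centred on the 9 hybridisation controls, an alternative chosen after seeing the data, PICT minus PCT gave 23 higher and 0 lower, and OMCT minus PCT gave 4 and 0. With a pseudocount at the median of all values, PICT minus PCT gave 13 higher and 0 lower, and OMCT minus PCT gave 2 higher and 0 lower; with a pseudocount of 1, OMCT minus PCT gave 2 higher and PICT minus PCT 15. With the mean over probe sets, PICT minus PCT gave 13 higher, Mx2, Stat2 and Sp110 falling short. Against OMCT, PICT had 9 to 14 members higher and 0 lower under every alternative run. Apart from the deposited scale, the share of all genes was not counted under these alternatives. Their member counts therefore cannot be read against such a share. Of the 11 members past 2-fold in PICT against both others, Mx1, Isg15, Ifit3, Usp18 and Samhd1 stayed past 2-fold in all 6 alternatives to scaling, pseudocount and probe set. Each of these genes has 1 probe set, so the mean over probe sets could not change it. Among the 11, only Mx2 and Cmpk2 have several. Samhd1 stayed past 2-fold narrowly, at 1.002 against OMCT with the pseudocount at the median. Mx2 fell short with the mean over probe sets, and Rsad2, Irf7, Gbp4, Cmpk2 and Ifitm1 with the pseudocount at the median. No called difference of the 22 members tracked changed sign. Such differences were at least 1 in size and array medians differed by at most 0.62, so leaving out the scaling could not reverse them. Over all 44 members, called or not, the sign differed between the relative and deposited scales for 5 in PICT minus PCT. It did so for 16 in OMCT minus PCT and for 0 in PICT minus OMCT. Signal near the negative controls limits Oas1b, Ifit1 and the interferon genes.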

Other observations

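In Igtp, Irgm and Parp14 the gamma-activated site letters began 11 bases before the response element letters, at -114 and -103, -45 and -34, and -87 and -76 from the annotated start. Other members held both kinds of letters at other distances between the first matches. These were 156 bases in Ifi44l, 158 in Oas1a, 154 in Oas1b and 6 in Bst2. In Ifitm3 the value was -11, so the order was reversed. The arrangement in Igtp, Irgm and Parp14 was noticed in the data and was not tested. Its share over all promoters was not counted. A probe set shared by Igtp and 2 related genes, which was left out above because it has several symbols, read 17.6 in PICT, 12.4 in PCT and 10.2 in OMCT.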
